A study of Mus musculus with 10 samples.

Results

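The neurexins, neuroligins and synaptic C1q-like proteins are 9 genes here, Nrxn2, Nrxn3, Nlgn1, Nlgn2, Nlgn3, C1ql3, C1ql2, Cbln1 and Cbln2, of the 18193 genes that a probe set of the array names alone. They were represented by every probe set whose annotation names exactly 1 gene and that gene is on the list, which gave 22 of 34945 probe sets, from 1 for C1ql2 and Cbln2 to 5 for Nrxn3. The group was chosen by the labelled KO minus labelled WT differences of Nrxn3 and C1ql3 in these arrays, so the difference between genotypes in those genes is described below without a test. The 10 arrays came from 10 mice, and each measured RNA of the hypothalamic preoptic region, cut out by laser capture. Of the arrays, 5 were labelled mPGES-1 KO, mice without microsomal prostaglandin E synthase-1, the inducible enzyme that makes prostaglandin E2, and 5 were labelled WT. All mice, KO and WT, were on the DBA1/lacJ background and had been given 120 µg/kg of lipopolysaccharide (LPS), a bacterial cell wall component that induces fever, into the peritoneum 5 h before the brain was removed. The labels give neither ages nor the deleted part of the gene, and no mice without LPS were analysed here.

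Neurexins are receptors in the membrane of the presynaptic terminal that hold it to the postsynaptic cell, and each neurexin gene makes long and short proteins from separate promoters and many splice forms. Neuroligins are their partners on the postsynaptic side. Cerebellins and C1q-like proteins are secreted into the synaptic cleft and carry a C1q-type globular domain. They bind neurexins on the presynaptic side and link them to receptors on the other side: Cbln1 joins neurexins to the glutamate receptor relative GluD2 in the mouse cerebellum, and C1ql2 and C1ql3 help to recruit kainate receptors to mouse hippocampal mossy fibre synapses. These proteins help to set how synapses form and which receptors gather at them.

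The arrays were scaled to the same trimmed mean by the authors, and their number limits the precision of every value. The label of the knockout was not borne out by the Ptges probe sets, of which none was lower in arrays labelled KO. Probe set 1439747_at gave 17.5 to 76.1 in arrays labelled KO and 1.51 to 9.33 in arrays labelled WT (adjusted p = 0.111 in the limma test described below). In the others the groups overlapped. For 1449449_at the ranges were 9.83 to 60.25 labelled KO and 1.25 to 34.6 labelled WT, and for 1449450_at 22.2 to 61.5 and 2.75 to 57.8. A probe set outside the deleted part checks no label, so the groups are called labelled KO and labelled WT. Of 10 preoptic markers listed 8 had a value, and 8 of 8 were above the dimmest 40% of probe sets, where 4703 of all 18193 genes were not. The galanin gene Gal was at 1276 to 1982 and 1158 to 1521 in the arrays labelled KO and WT. Others were much dimmer, such as Nkx2-1 at 13.0 to 51.0 and 17.7 to 67.6. The neuronal marker list summed to 15662 to 25327 in arrays labelled KO and 16358 to 19594 in arrays labelled WT. In RNA from a captured piece of tissue with many cell types, fewer cells of a type and less RNA per cell cannot be told apart. Signal of the RNA spike-ins was present on 7 arrays and absent on KO replicate 3 and WT replicates 2 and 5. The array of KO replicate 3 also had transthyretin (Ttr, a choroid plexus gene) at 6161, against at most 446 in any array labelled WT. Of the other choroid plexus markers, Clic6 reached at most 510 in arrays labelled KO and 381 in arrays labelled WT. The dim Folr1 and Kcne2 reached at most 27.5 and 15.8 in arrays labelled KO and 32.6 and 31.9 in arrays labelled WT.

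Values below are linear intensities of probe sets, and differences are labelled KO minus labelled WT on the log2(intensity + 16) scale, which understates the change of dim probe sets. Of the 22 probe sets 18 were above the dimmest 40%, at least 1 for each gene. Over all 45037 probe sets the median difference was -0.13, and the median intensity of an array was 24.6 to 29.8 in arrays labelled KO and 32.0 to 44.8 in arrays labelled WT. The median difference was -0.08 over those above the dimmest 40%, -0.01 over all with quantile normalization and 0.15 with median centring. A difference near -0.1 is therefore close to that of the whole array. The limma test called 0 of the 14 probe sets of the 7 genes that had not prompted the list at an adjusted p below 0.05, where 0% of the array was called (5696 of 45037 probe sets, or 12.6%, were at an unadjusted p below 0.05, 3.68% higher and 8.97% lower). The groups did not overlap in 2 of the 22, both higher, as in 3.22% of the array, 0.808% higher and 2.42% lower. Both belong to Nrxn3 and C1ql3, for which the list was chosen, so nothing is read from that count. In all 14 probe sets of the other 7 genes the groups overlapped. Of the 22, 8 were higher and 14 lower in arrays labelled KO, while 34.9% of the array was higher. With median centring 16 were higher and 6 lower, while 68.2% of the array was higher. Of the 18 above the dimmest 40%, 6 were higher, against 41.3% of such probe sets. The median of the 22 was -0.09.

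**Figure D1:**
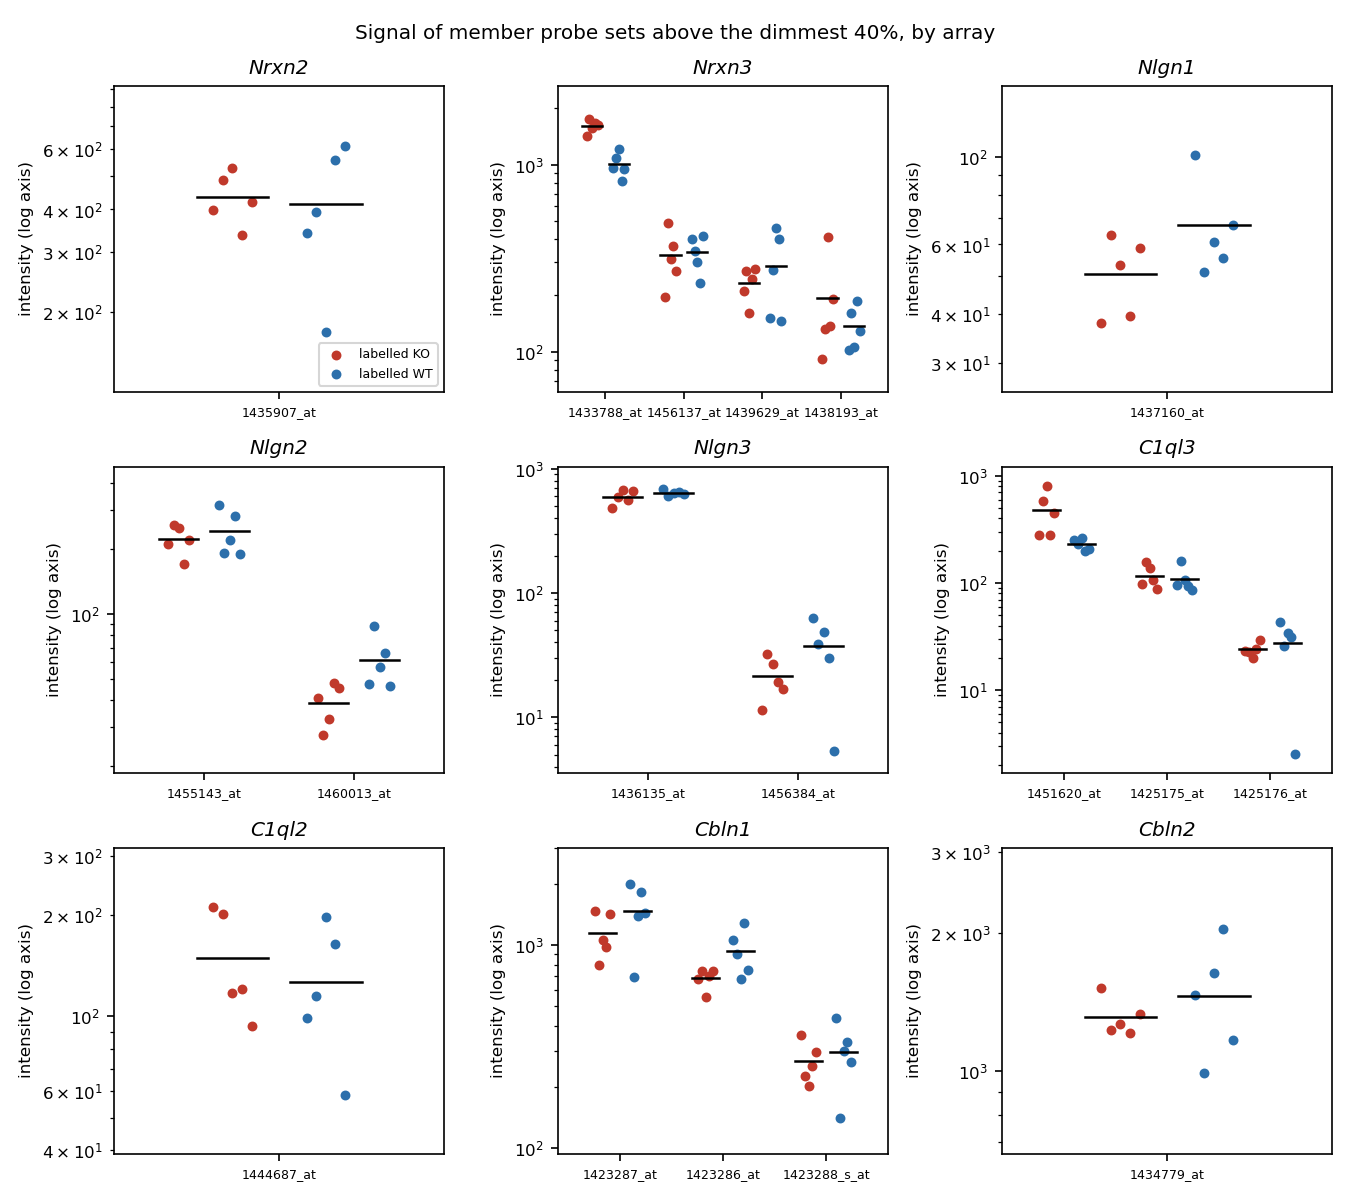
Signal of the 18 member probe sets above the dimmest 40%, with 1 panel per gene, intensity on a logarithmic axis, 1 point per array (labelled KO left in red, labelled WT right in blue, 5 each) and a bar at the mean. Nrxn3 1433788_at and C1ql3 1451620_at are the panels' separated groups, and in every other probe set the groups overlap.

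Nrxn3 was the neurexin gene on which the list was built, and its brightest probe set was higher in every array labelled KO. Probe set 1433788_at, at percentile 94.3 of mean signal, gave 1430.3, 1754, 1572, 1673 and 1625 in KO replicates 1 to 5, against 965, 1091, 1211, 819 and 948 in WT replicates 1 to 5. All 5 arrays labelled KO lay above all 5 labelled WT, a pattern found in this direction in 0.808% of all probe sets, but this probe set was among the reasons for the list, so nothing is read from it. The means were 1611 ± 121 in arrays labelled KO and 1007 ± 149 in arrays labelled WT (SD, n = 5 each), a difference of 0.68 (SE 0.14, 95% interval 0.38 to 0.97). In the 7 arrays that had spike-in signal it was 0.70, and in the others KO replicate 3 at 1572 was above WT replicates 2 and 5 at 1091 and 948. Leaving out any single array gave 0.61 to 0.75.

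In the other 4 Nrxn3 probe sets the groups overlapped. With the deposited scaling their differences had both signs, while with median centring all 5 Nrxn3 probe sets were positive, at 0.11 to 0.96, as were all 3 of C1ql3, at 0.26 to 1.18. That centring made 68.2% of the whole array positive, with a median of 0.20 above the dimmest 40%. Nrxn3 1456137_at at 0.19 and 1439629_at at 0.11 did not exceed that median. Probe set 1456137_at gave 196, 491, 313, 368 and 269 in the arrays labelled KO and 401, 346, 303, 233 and 417 in those labelled WT, a difference of -0.09 (SE 0.22, 95% interval -0.56 to 0.38). Probe set 1439629_at gave 211, 269, 161, 245 and 275 in the arrays labelled KO and 152, 273, 456, 402 and 146 in those labelled WT, a difference of -0.17 (SE 0.28, 95% interval -0.75 to 0.42). In both the groups overlapped over most of their range, and the arrays labelled WT spread widest in 1439629_at. Probe set 1438193_at gave 91.5, 132, 412, 138 and 191 in the arrays labelled KO and 103, 160, 106, 187 and 128 in those labelled WT, a difference of 0.31 (SE 0.30). The array of KO replicate 3 stood far above the rest there, and without it the difference was 0.0031. The dim probe set 1432931_at was between 0.71 and 55.7 in arrays labelled KO and between 5.73 and 21.8 in arrays labelled WT. Neurexin genes make many transcript forms, and the annotation used here does not say which of them a probe set reads.

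The RefSeq promoter table (GRCm38.p6) holds 3 transcript starts for Nrxn3 on the plus strand of chromosome 12, at positions 88794504, 88953390 and 89812483. The 250 bases before the last of these, at chr12:89812233-89812482, are shown as the stretch of the 3 with the most motif matches, with the same stretch of C1ql3 (chr2:13010865-13011114, minus strand) because these genes held the separated groups, and that of C1ql2 (chr1:120340332-120340581, plus strand) is shown as the relative of C1ql3. Capitals mark E-boxes (CANNTG) and GC boxes (GGGCGG), each on either strand.
Nrxn3: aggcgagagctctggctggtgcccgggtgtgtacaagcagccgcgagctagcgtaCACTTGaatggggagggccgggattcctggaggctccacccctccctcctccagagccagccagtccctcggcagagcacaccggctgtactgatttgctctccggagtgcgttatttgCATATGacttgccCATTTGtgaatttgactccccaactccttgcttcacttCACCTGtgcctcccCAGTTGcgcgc
C1ql3: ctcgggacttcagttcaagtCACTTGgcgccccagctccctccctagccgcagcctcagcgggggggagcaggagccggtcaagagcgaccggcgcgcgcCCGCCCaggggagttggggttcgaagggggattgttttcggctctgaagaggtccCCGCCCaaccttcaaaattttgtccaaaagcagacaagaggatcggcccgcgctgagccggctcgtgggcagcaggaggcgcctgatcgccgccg
C1ql2: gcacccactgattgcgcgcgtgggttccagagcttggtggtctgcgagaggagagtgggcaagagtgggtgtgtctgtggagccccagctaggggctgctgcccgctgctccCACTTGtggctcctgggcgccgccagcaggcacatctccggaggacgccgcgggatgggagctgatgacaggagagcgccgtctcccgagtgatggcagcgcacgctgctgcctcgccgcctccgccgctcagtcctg
The printed Nrxn3 stretch held 5 E-boxes and 0 GC boxes, and those before the other starts held 0 and 1 E-boxes and 0 GC boxes. The stretch of C1ql3 held 1 E-box and 2 GC boxes, and that of C1ql2 1 E-box and 0 GC boxes. Of 32851 stretches of this length in the table, 66.2% held an E-box and 32.7% a GC box. The cyclic AMP response element (TGACGTCA), its part TGACG and the TATA box (TATAAA) were absent from all of these stretches, and 1.55%, 17.8% and 12.4% of the stretches in the table held them. The GC content was 45.6%, 46.8% and 60% for the Nrxn3 starts in order of position, 66.4% for C1ql3 and 68.8% for C1ql2, against a median of 52.4%. These matches describe letters and not binding.

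Nrxn2, the other neurexin gene with a value, did not pass the test. Its bright probe set 1435907_at gave 398, 486, 530.3, 337 and 421 in KO replicates 1 to 5 and 342, 394, 176, 557 and 613 in WT replicates 1 to 5. All the arrays labelled KO lay inside the wider range of those labelled WT. The difference was 0.16 (SE 0.26, 95% interval -0.38 to 0.70, limma adjusted p = 0.826), and -0.11 without WT replicate 3. The second probe set, 1455499_at, which was designed from the same source sequence, was dim at 0.58 to 5.02 in arrays labelled KO and 1.26 to 27.7 in arrays labelled WT.

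Among the secreted proteins, C1ql3 had separated groups, again in 1 probe set of several. Probe set 1451620_at gave 283, 576, 805, 281 and 446 in KO replicates 1 to 5, against 252, 230.5, 265, 199.7 and 207 in WT replicates 1 to 5. All 5 arrays labelled KO lay above all 5 labelled WT, but KO replicates 1 and 4 did so narrowly, at 283 and 281 against the highest WT value of 265. The means were 478 ± 220.4 in arrays labelled KO and 231 ± 28.1 in arrays labelled WT (SD, n = 5 each), a difference of 0.90 (SE 0.24, 95% interval 0.38 to 1.41). The spread was wider in the arrays labelled KO, with an SD on the log2 scale of 0.64 against 0.16 in those labelled WT. The difference was 0.69 without KO replicate 3, the highest array, and 0.64 in the 7 arrays that had spike-in signal.

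The other 2 C1ql3 probe sets, designed from the same source sequence as 1451620_at, gave overlapping groups. Probe set 1425175_at gave 97.4, 156, 137, 106 and 87.0 in the arrays labelled KO and 94.8, 161, 107, 93.1 and 86.0 in those labelled WT, a difference of 0.10 (SE 0.23, 95% interval -0.38 to 0.57). Probe set 1425176_at gave 23.3, 22.8, 20.2, 24.5 and 29.5 in the arrays labelled KO and 43.5, 25.7, 33.9, 31.6 and 2.54 in those labelled WT, a difference of -0.02 (SE 0.32, 95% interval -0.69 to 0.65). In the first the 5 values of each group ran side by side, and in the second WT replicate 5 was low and the others of its group lay above most arrays labelled KO.

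C1ql2, the close relative of C1ql3, had 1 probe set, 1444687_at, at 211, 202, 118, 121 and 93.9 in KO replicates 1 to 5 and 98.6, 115, 198, 165 and 58.6 in WT replicates 1 to 5. The groups overlapped, with KO replicates 1 and 2 highest. The difference of 0.24 (SE 0.29, 95% interval -0.36 to 0.84) did not pass (limma adjusted p = 0.75). It ran from 0.029 without WT replicate 5 to 0.41 without WT replicate 3, with 0.11 and 0.12 without KO replicates 1 and 2 and 0.37 without KO replicate 5, and was 0.0072 in the 7 arrays that had spike-in signal.

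All 4 cerebellin probe sets had negative differences, and none passed. Of the 27022 probe sets above the dimmest 40%, 15863 were also lower, with a median difference of -0.08. Cbln1 1423288_s_at at -0.08 and Cbln2 at -0.11 lay close to that level. Cbln1 probe set 1423286_at gave 683, 740.1, 553, 705 and 743 in KO replicates 1 to 5 and 1058, 898, 676, 1284 and 753 in WT replicates 1 to 5. Of the arrays labelled WT, 4 of 5 lay above every array labelled KO. The means were 685 ± 77.8 in arrays labelled KO and 934 ± 244 in arrays labelled WT (SD, n = 5 each), a difference of -0.41 (SE 0.17, 95% interval -0.78 to -0.04, limma adjusted p = 0.345). It was the only probe set of the 14 from the 7 genes that had not prompted the list with an unadjusted limma p below 0.05. Of the whole array 12.6% of probe sets were below it.

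Cbln1 probe set 1423287_at gave 1474, 798, 1055, 982 and 1426 in the arrays labelled KO and 2001, 698, 1387, 1828 and 1437 in those labelled WT, a difference of -0.31 (SE 0.24, limma adjusted p = 0.610). The third, 1423288_s_at, gave 359.5, 227, 202, 254 and 296 in the arrays labelled KO and 439, 140.1, 301, 334 and 265 in those labelled WT, a difference of -0.08 (SE 0.25, limma adjusted p = 0.915). In both, WT replicate 2 was the lowest of all arrays and WT replicate 1 the highest. Cbln2 probe set 1434779_at gave 1514, 1230.3, 1267, 1211 and 1335 in the arrays labelled KO and 1467, 989, 1634, 2044 and 1166 in those labelled WT. The arrays labelled KO again lay inside the range of those labelled WT, and the difference was -0.11 (SE 0.18, 95% interval -0.48 to 0.26, limma adjusted p = 0.816). The Cbln2 and 1423288_s_at differences turned positive with median centring, where 68.2% of the array was higher.

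The neuroligins had 7 probe sets, and 0 passed. Nlgn2, whose protein lies at inhibitory synapses, gave in probe set 1455143_at 210.1, 257, 248, 170.4 and 220.1 in KO replicates 1 to 5 and 317, 192, 219.9, 282 and 189 in WT replicates 1 to 5, a difference of -0.09 (SE 0.19, limma adjusted p = 0.864). The dimmer 1460013_at gave 40.9, 27.8, 32.8, 48.2 and 45.5 in the arrays labelled KO and 47.7, 88.4, 57.1, 65.9 and 46.5 in those labelled WT, a difference of -0.48 (SE 0.26, 95% interval -1.02 to 0.07, limma adjusted p = 0.454). The groups overlapped in both, and in the second 4 of 5 arrays labelled KO lay below the lowest array labelled WT.

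Nlgn3, whose protein is found at excitatory and inhibitory synapses, was measured by probe set 1436135_at at 482, 597, 675, 563 and 659 in the arrays labelled KO and 689, 599, 638, 648 and 622 in those labelled WT. The difference was -0.11 (SE 0.14, 95% interval -0.41 to 0.19, limma adjusted p = 0.777). Its second probe set above the dimmest 40%, 1456384_at, gave 11.5, 32.5, 26.6, 19.2 and 17 in the arrays labelled KO and 63.2, 38.8, 48.8, 29.7 and 5.34 in those labelled WT, a difference of -0.41 (SE 0.34, limma adjusted p = 0.636). The groups overlapped in both. The dim 1453756_at was at -0.17 (SE 0.33).

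Nlgn1, whose protein lies at excitatory synapses, gave in probe set 1437160_at 37.9, 63.3, 53.3, 39.5 and 58.7 in KO replicates 1 to 5 and 101, 51.0, 61.0, 55.4 and 67.2 in WT replicates 1 to 5. The groups overlapped, with WT replicate 1 highest, and the difference was -0.31 (SE 0.25, 95% interval -0.85 to 0.23, limma adjusted p = 0.628). The dim 1421648_at was at 0.05 (SE 0.25). Over the 14 probe sets of the 7 genes that had not prompted the list, 3 were higher and 11 lower (8 and 6 with median centring, where 68.2% of the array was higher, against 34.9% with the deposited scaling), the groups overlapped in all 14, and limma adjusted p ran from 0.345 to 0.955. The test was also run on a simulation of 45037 independent probe sets with 5 arrays a group. Changes were put only into a small sample of those above the dimmest 40%. Of changes of log2 0.75, 1, 1.5 and 2 there, 8%, 28%, 78% and 94% were recovered, and the rates do not cover dim probe sets.

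**Figure D2:**
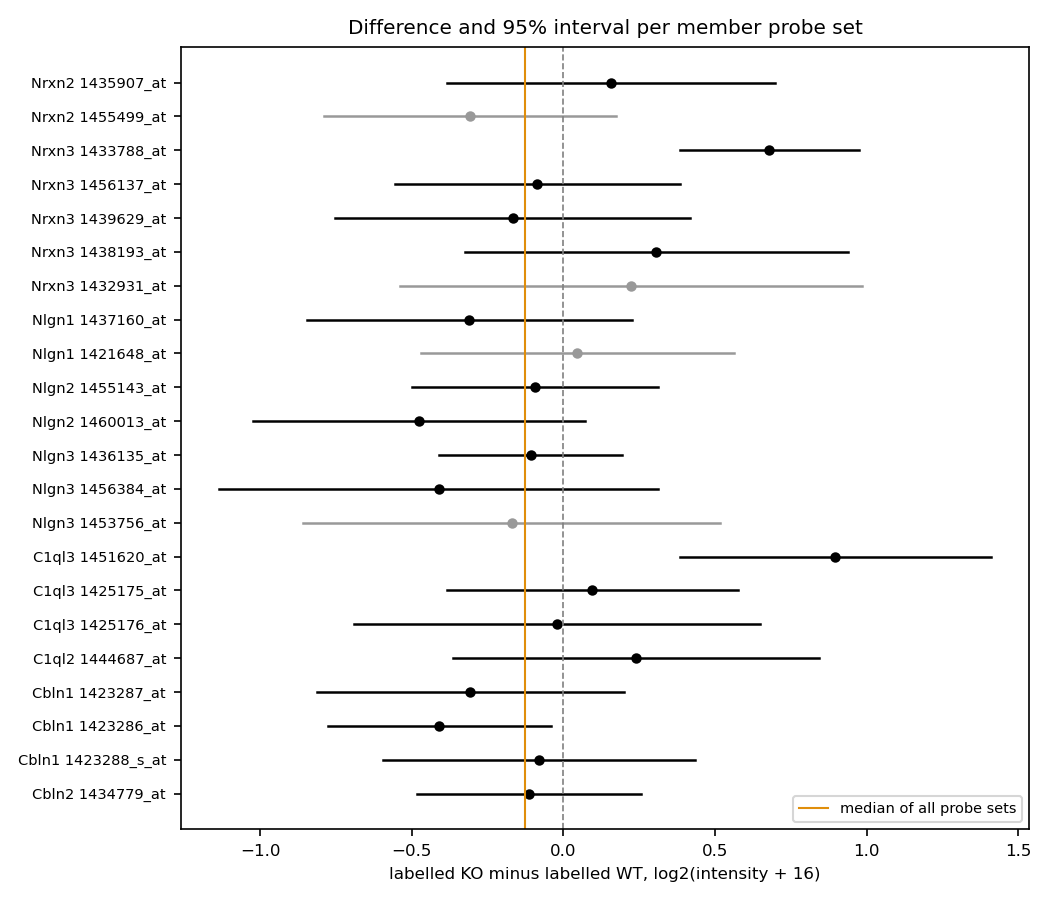
Difference between labelled KO and labelled WT arrays on the log2(intensity + 16) scale for each of the 22 member probe sets, with its 95% interval (black above the dimmest 40%, grey below it), and the median of all probe sets as an orange line. Nrxn3 1433788_at at 0.68 and C1ql3 1451620_at at 0.90 lie farthest right, and the list was chosen for these genes' differences, so their intervals are a description. Of the 14 probe sets of the other 7 genes, Cbln1 1423286_at at -0.41 has its interval below 0 and the other 13 intervals include 0.

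The striatum and septum lie beside the preoptic region, and a joint list of their markers also scored higher in most arrays labelled KO. The members did not move together. The differences were 1.605 for Pde10a, 1.419 for Tac1, 1.381 for Bcl11b, 1.235 for Drd1 and 0.93 for Penk. They were 0.44 for Ppp1r1b, 0.26 for Drd2 and 0.15 for Foxp1, and -0.004 for Zic1, -0.09 for Trpc4 and -0.25 for Rgs9. Of 13 listed markers 11 had a value and 8 of these were higher, where 39.4% of all genes were, with 0 markers at 0. Of the 8, Drd2 and Ppp1r1b were in the dimmest 40%. The summed intensity of the 11 was 6322 to 10584 in arrays labelled KO and 4962 to 8311 in arrays labelled WT. Zic1 was a large part of it, at 3547 to 5503 in arrays labelled KO and 3118 to 6408 in arrays labelled WT. On the mean log2 scale the list scored 8.63, 8.5, 8.87, 7.58 and 7.89 in KO replicates 1 to 5 and 7.79, 7.74, 7.66, 7.40 and 7.66 in WT replicates 1 to 5. KO replicate 4, whose score of 7.58 lay within the range labelled WT, had Nrxn3 1433788_at at 1673, above every array labelled WT. Its C1ql3 1451620_at was at 281, near the WT values. Of the 3 arrays with the highest scores, KO replicates 2 and 3 had C1ql3 at 576 and 805 and KO replicate 1, with a score of 8.63, had 283. Cortical markers summed to 61.3 to 456 in arrays labelled KO and 78.3 to 200.8 in arrays labelled WT, with 2 of 4 in the dimmest 40% and the highest mean score, 6.46, in KO replicate 3. The part of striatal, septal or cortical tissue in the C1ql3 and Nrxn3 differences was not tested.

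**Figure D3:**
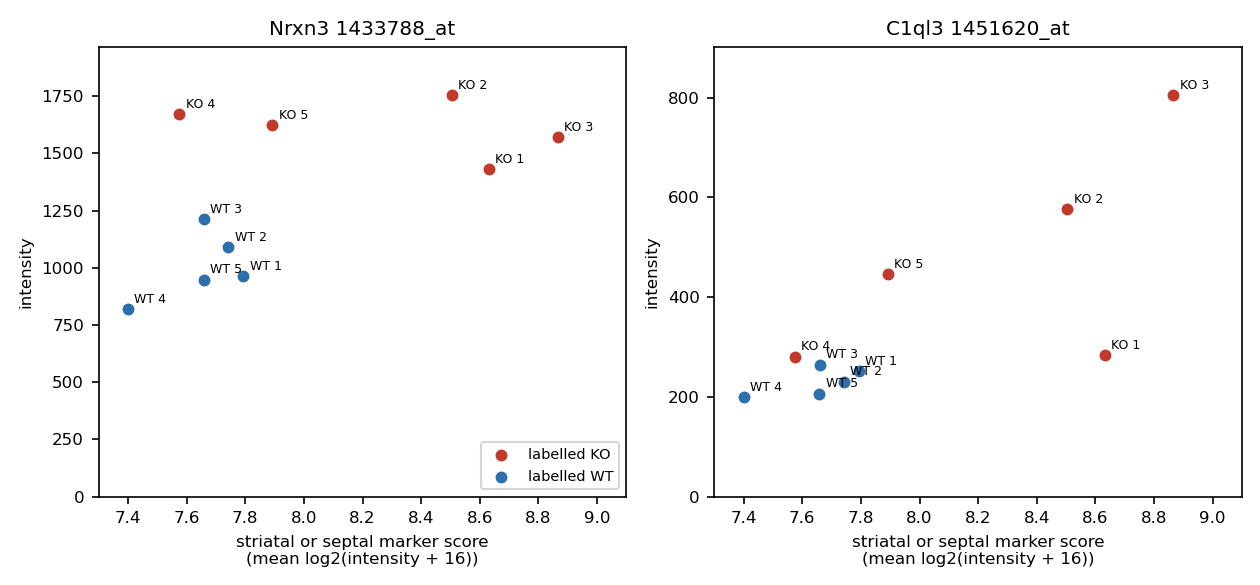
Intensity of Nrxn3 1433788_at (left) and C1ql3 1451620_at (right) against the mean log2(intensity + 16) of 11 striatal or septal markers, 1 point per array, labelled KO in red and labelled WT in blue. Nrxn3 is at 1430.3 to 1754 in the arrays labelled KO at every score, and C1ql3 is highest in KO replicate 3, which has the highest score of 8.87.

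Likeness between genes was measured as Pearson r over the 10 arrays after each group's mean was removed, among 13489 other genes above the dimmest 40%, as a description with no test. The arrays share amplification, depth of signal and scaling. Nrxn3 1433788_at was most like Rps24 (r = 0.958), Morc3 (0.948), Hacd1 (0.941), the neural adhesion gene Chl1 (0.939) and Smc6 (0.938). C1ql3 1451620_at was most like Ldb2 (r = 0.963), Asxl3 (0.959), the neuronal transcription factor gene Bcl11a (0.955), the guanine deaminase gene Gda (0.925) and Ttc9b (0.913). Its median r with 9 striatal or septal markers was 0.44, against -0.05 over all genes ranked. With 7 neuronal markers it was 0.235, and with 61 of the genes listed below that work with neurexins and neuroligins 0.281. For C1ql3 1425175_at and 1425176_at the median r with the striatal or septal markers was 0.241 and 0.00645. For Nrxn3 1433788_at it was -0.09, against -0.06 over all genes ranked.

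The lists differed from probe set to probe set within a gene as well. For Nrxn3 1456137_at they were Gm30054, Nsa2, Zfp317, Serpinb1a and Hif1an (r = 0.86 to 0.901), for 1439629_at Tram1l1, Cplane1, Ythdf1, Rgl2 and Cfap65 (0.926 to 0.973), and for 1438193_at Kcnc2, Dnajb14, Adcy9, Ttr and Mgll (0.894 to 0.968). For C1ql3 1425175_at they were Pde1c, Rims1, Sufu, Appbp2os and Stc2 (r = 0.883 to 0.956), and for 1425176_at Lcmt2, Papolb, Map4k5, Mogs and Mrps28 (0.929 to 0.949). No gene was among the first 5 of more than 1 of these probe sets. Between the probe sets of Nrxn3 above the dimmest 40%, r ran from -0.359 to 0.488, and between those of C1ql3 from 0.0646 to 0.504.

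Genes that work with neurexins and neuroligins were taken from 6 lists with 75 genes, of which 68 had a probe set of their own. Of the 68, 37 were higher and 31 lower in arrays labelled KO, and the median difference was 0.04, against -0.09 over the 18193 genes counted the same way (39.4% of these were higher). With median centring 56 of the 68 were higher and 12 lower, where 71.7% of all genes were higher. The limma test called 0 of the 68 at an adjusted p below 0.05, where 0% of the array was called, and the smallest adjusted p was 0.180. At an unadjusted limma p below 0.05 there were 9 higher and 2 lower, where 5.32% and 8.68% of all genes were. Above the dimmest 40% of probe sets, 35 of 61 partner genes were higher, where 44.7% of such genes were. The lists were written with earlier results of these data known, so these counts are a description and nothing is read from them.

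Among 18 scaffold genes with a value, 9 were higher and 9 lower. Homer1, a postsynaptic scaffold gene with activity-induced short forms, averaged 1375 ± 866 in arrays labelled KO and 559 ± 377 in arrays labelled WT (SD, n = 5 each; difference 1.37, SE 0.39, limma adjusted p = 0.180), with 4 of its 6 probe sets higher. Dlgap1, which binds the scaffold PSD-95, was at 0.79 (SE 0.24, limma adjusted p = 0.208), where 5 of 6 probe sets were lower. Shank3 was at -0.42 (SE 0.28) and Lin7b, whose protein sits in the presynaptic complex with Cask, at -0.31 (SE 0.17). Lin7c, named after its values were seen, was at 0.53 (SE 0.17, limma adjusted p = 0.215), while 2 of its 4 probe sets were lower. All 5 arrays labelled KO lay above all those labelled WT, a pattern found in this direction in 0.808% of all probe sets.

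Of 17 other neurexin ligands and neuroligin inhibitors, 7 were higher and 10 lower. The calsyntenin gene Clstn2 was at 0.62 (SE 0.19, limma adjusted p = 0.199), while 1 of its 2 probe sets was lower. Lrrtm2, a postsynaptic neurexin ligand, was at 0.46 (SE 0.19, limma adjusted p = 0.335). In Lrrtm2 all 5 arrays labelled KO lay above all 5 labelled WT, and all 3 of its probe sets were higher. Of the 68 partner genes only Lrrtm2 and Lin7c had groups that did not overlap, as in 0.808% of all probe sets in this direction. Nxph4, a neurexophilin gene, was at -0.74 (SE 0.34) and Igsf21, a neurexin ligand at inhibitory synapses, at -0.27 (SE 0.22).

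Of 4 receptors of cerebellins and C1q-like proteins, 3 were higher. The kainate receptor gene Grik2 was at 0.48 (SE 0.21, limma adjusted p = 0.349), Adgrb3, a receptor for C1q-like proteins, at 0.23 (SE 0.14) and the kainate receptor gene Grik4 at -0.26 (SE 0.24). Of 3 further family members, Cbln4 was at 0.07 (SE 0.21), C1ql1 at -0.29 (SE 0.27) and the dim Cbln3 at -0.11 (SE 0.36). Of 22 other synaptic organizers 14 were higher and 8 lower, with Slitrk4 at 0.55 (SE 0.25), Ntng1 at 0.42 (SE 0.24), Tenm3 at -0.47 (SE 0.17) and the dim Lrrc4b at -0.49 (SE 0.25). Slitrk4 had 2 of 2 probe sets higher, and Ntng1 had 1 of 4 higher and 3 lower. Adam10, a protease that sheds neuroligins, was at 0.42 (SE 0.20), and of the splice factor genes that act on neurexin transcripts Khdrbs3 was at 0.10 (SE 0.25) and Khdrbs2 at -0.32 (SE 0.28). None of these passed the test over the whole array.

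**Figure D4:**
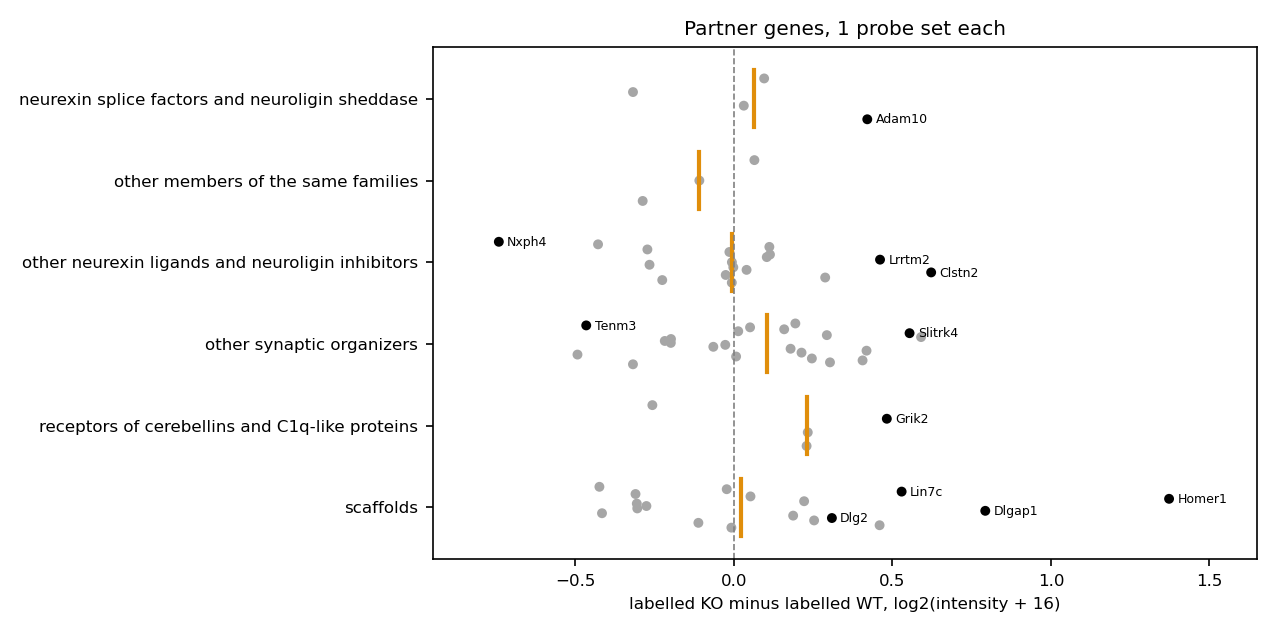
Difference between labelled KO and labelled WT arrays on the log2(intensity + 16) scale for 68 partner genes in 6 lists, 1 point per gene and an orange bar at each list's median. Black points with names are the 11 genes at an unadjusted limma p below 0.05, 9 higher and 2 lower, of which Homer1 at 1.37 is farthest from 0.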

How the data were processed

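The authors deposited a linear intensity for each probe set. Per the submitters' processing notes GCOS, the array scanner's software, was used, and its version and settings were not given in the sources used here. Per the labels' protocols, biotin was added after 2 rounds of RNA amplification. On every array the mean of the deposited intensity, with 2% trimmed from each end, was 200.002. Groups come from the titles, and 64 control probe sets were left out. Probe sets were named from a platform annotation, which can be old: 34945 named 1 gene (34741 matched RefSeq, GRCm38.p6, by Entrez ID), 932 several and 9160 none, and only the first were given a gene.

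All 45037 probe sets were tested as log2(intensity + 16) with limma's lmFit and eBayes, the prior variance following mean intensity, as labelled KO minus labelled WT, genotype as the only term, with Benjamini-Hochberg adjustment over all of them and a threshold of 0.05. Each probe set stood apart, and partner genes were counted by their brightest probe set. Members, lists, settings and tests were chosen with earlier results of these data known. The rule for named genes took every member probe set, the 2 partner genes with the smallest p per list and direction, and the 5 genes most like each Nrxn3 or C1ql3 probe set above the dimmest 40%. Alternatives tried were quantile normalization, median centring, pseudocounts of 1 and 64, leaving out the dimmest 40%, every probe set of a partner gene apart, no trend, array weights, a replicate block, a block of or restriction to arrays with spike-in signal of at least 100, an adjusted p below 0.1 and leaving out each array. On simulated data with independent probe sets, 3.7% of the calls were false. No pair of arrays held the same value at more than 0.00444% of probe sets. The titles' replicate numbers are shared between groups, but same-numbered arrays did not deviate together (r = -0.0493 to 0.0267). Each array is another mouse by its label, and p-values cover differences among mice, captures and amplifications. R 4.3.3, limma 3.58.1, data.table (version 1.17.8), Python 3.11.15, pandas 2.3.3, numpy 2.4.6 and matplotlib 3.10.9 were used.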

Additional observations from a re-analysis of the deposited data

Results flagged for a closer look

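In 3 of the 44 sets of 5 arrays (22 probe sets, 2 groups), 1 array lay far from the others of its group by Dixon's criterion (gap over range above 0.71), and chance gives about 1 in 20 such sets. The Cbln1 probe set 1423286_at was at 553 in KO replicate 3, where the next lowest array labelled KO was at 683. The dim Nrxn2 probe set 1455499_at was at 5.02 in KO replicate 1, with the next at 1.15, and at 27.7 in WT replicate 2, with the next at 3.84.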

How the results depend on the processing

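The count past the limma threshold, over the 14 probe sets of the 7 member genes that had not prompted the list, was 0 under every setting tried. The partner genes past it were 4 with median centring (Homer1, Dlgap1, Clstn2 and Lin7c) and 0 otherwise, also with an adjusted p below 0.1 and with every probe set apart. Median centring moved the median difference of all probe sets to 0.15 and called 550 of them, 545 higher and 5 lower, against 0 as reported. With it Nlgn2 1455143_at was at 0.19, Nlgn3 1436135_at at 0.17 and 1453756_at at 0.11, Cbln1 1423288_s_at at 0.20 and Cbln2 1434779_at at 0.17, as were Nrxn3 1456137_at at 0.19 and 1439629_at at 0.11 and C1ql3 1425176_at at 0.26, all turned from negative, and the cause beyond that shift was not tested. C1ql3 1425176_at also turned with quantile normalization (0.26), a pseudocount of 1 (0.20) and array weights (0.07), Nrxn3 1456137_at in spike-in arrays alone (0.04) and the dim Nrxn3 1432931_at with a pseudocount of 1 (-0.10). The dim Nlgn1 1421648_at turned to -0.0453 with a pseudocount of 1 and to -0.0141 with the spike-in block. Leaving out single arrays turned Nlgn1 1421648_at (-0.0873 to 0.21), Nlgn2 1455143_at (-0.17 to 0.0077), Nlgn3 1453756_at (-0.37 to 0.00652), Nrxn2 1435907_at (-0.11 to 0.32), Cbln1 1423288_s_at (-0.31 to 0.0765), Cbln2 1434779_at (-0.24 to 0.0191), Nrxn3 1456137_at (-0.24 to 0.07), 1439629_at (-0.36 to 0.03) and 1432931_at (-0.05 to 0.47), and C1ql3 1425175_at (-0.0038 to 0.23) and 1425176_at (-0.30 to 0.12). Over all settings Nrxn3 1433788_at ran from 0.61 to 0.96 and C1ql3 1451620_at from 0.64 to 1.18. With the replicate block the count of these member probe sets past the threshold was 0, and Nrxn3 1433788_at was at 0.68. The numbers are only shared numbers and the block changed no call on a member or partner gene.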
